A study of Homo sapiens with 12 samples.

Results

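The genes described here are 9 components of the NRF2 antioxidant pathway, NQO1, NFE2L2, KEAP1, HMOX1, GCLM, GCLC, TXNRD1, SRXN1 and SLC7A11, out of 56638 gene symbols counted in 501Mel cells. NQO1 was chosen by its response in these libraries, a TCDD induction that was absent when RSV was also present, and the other 8 genes were listed to see whether pathway genes shared that pattern. The values of NQO1 in the 5 comparisons of RSV and TCDD are therefore descriptions without a test. All 9 genes passed the filter on low counts, which left 16080 genes for testing.

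The 501Mel line, an established line from human melanoma, carries an activating BRAF mutation. Over 48 h it received DMSO as vehicle, 10 nM TCDD, 5 μM RSV, RSV together with TCDD, 1 μM Vem, or RSV together with Vem, with 2 libraries for each treatment. TCDD is a potent agonist of the aryl hydrocarbon receptor (AhR), RSV is resveratrol, used in the study as an AhR antagonist, and Vem is vemurafenib, an inhibitor of mutant BRAF. The study also reports that Vem itself binds AhR without switching on the canonical AhR response. The treatment protocol gives 10 nM TCDD for the RSV+TCDD group, while the label of those libraries gives 1 nM, so every RSV+TCDD value below carries this doubt about the dose. All 12 libraries come from this 1 line, and nothing in the labels says whether the 2 libraries of a group were separate cultures, so the p-values measure the spread between libraries, which may be technical.

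NRF2, encoded by NFE2L2, is a transcription factor that the adaptor KEAP1 holds in the cytoplasm and hands to a CUL3 ubiquitin ligase for degradation. Oxidants and electrophiles modify KEAP1, NRF2 then accumulates, pairs with a small Maf protein and binds the antioxidant response element (ARE) near its target genes. NQO1, a quinone reductase, is a textbook target of both NRF2 and AhR, which binds the xenobiotic response element (XRE). RNA levels do not measure NRF2 protein, which is the main point of control.

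The gene counts per library were between 8378655 and 25076925, lowest in RSV+Vem replicate 2. Melanocytic markers were high in every library (MLANA between 638 and 1390.3 CPM, where CPM is the count scaled to library size with TMM factors), and KRT14, PTPRC and PECAM1 were at or near 0. COL1A1, a fibroblast marker, was low but detected, between 0.46 CPM in a Vem library and 2.59 CPM in an RSV library. The common biological coefficient of variation was 0.0915. Changes are log2 fold changes from an edgeR quasi-likelihood fit to all 12 libraries, with p-values adjusted by Benjamini-Hochberg over every gene tested, and calls rest on an adjusted p under 0.05. Under this scaling the median of all tested genes lay between -0.03 and 0.03 in each comparison, so a change is relative to the median gene. Scaling to the ERCC spike-ins, which took between 0.0310% and 0.0936% of counts and were highest in RSV+TCDD replicate 2, placed that median at -0.51 for TCDD against vehicle, -0.17 for RSV against vehicle, -1.02 for RSV+TCDD against RSV, -0.70 for RSV+TCDD against TCDD, -0.52 for their interaction and -0.68 for Vem against vehicle. Where a called change of a named gene turned direction under it, that value stands beside the result.

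The sequences that NRF2 and AhR are known to read stand upstream of some of these genes. The ARE core was searched as TGACNNNGC and the XRE core as GCGTG, on both strands, in the 1000 bases before the canonical start of each gene on GRCh37, the build of the counts. ARE cores lay in the windows of NQO1, GCLM, GCLC and TXNRD1 and in 32.5% of 19869 such windows over all genes. XRE cores lay in the windows of 8 of the 9 genes, SRXN1 excepted, and in 72.7% of all windows. An ARE core that ends in GC could run into an XRE core, and none did in these windows. The ARE cores of NQO1 and these 3 genes are shown to compare their letters, which differ at the bases written N. A link between these matches and the responses was not tested. The core is in capitals, and each line reads 5′ to 3′ along the strand of its gene.
NQO1 ARE, 455 bases before the start, minus strand, chr16:69760880-69760948: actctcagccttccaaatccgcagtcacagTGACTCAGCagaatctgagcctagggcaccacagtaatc
GCLM ARE, 34 bases before the start, minus strand, core on the opposite strand, chr1:94375002-94375030: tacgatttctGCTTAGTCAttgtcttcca
GCLC ARE, 870 bases before the start, minus strand, core on the opposite strand, chr6:53410751-53410779: acaggtcattGCTCTGTCAacacatattt
TXNRD1 ARE, 99 bases before the start, plus strand, chr12:104609448-104609476: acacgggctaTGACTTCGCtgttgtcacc
The NQO1 core lies outside NQO1, in an exon of the divergent transcript NQO1-DT on the plus strand. The GCLM core touches the outermost annotated GCLM exon, the GCLC core lies in an intron of longer GCLC transcripts, and the TXNRD1 core lies in no annotated gene. A match describes letters in the reference and was not tested as a site of binding.

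NQO1 had the highest level per length of the 9 genes in vehicle, 117 ± 3.60 CPM per kb of canonical transcript (SD, n = 2). TXNRD1 followed at 72.2 ± 11.9 and NFE2L2 at 41.0 ± 3.59, and the libraries of these 3 genes did not overlap on that scale. HMOX1, GCLC, KEAP1, SLC7A11 and GCLM lay between 18.8 and 9.12 CPM per kb, and the libraries of KEAP1 spanned those of SLC7A11 and GCLM. SRXN1 was near the floor of the data at 0.508 ± 0.209.

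NQO1 rose about 2.05-fold with TCDD and lay near the vehicle level in the other 4 treated groups. It measured 287 and 300.2 CPM in vehicle and 627 and 578 CPM under TCDD. Under RSV it measured 289.8 and 288 CPM, and under RSV+TCDD 273 and 308 CPM. The TCDD libraries stood above every other library, and the vehicle, RSV and RSV+TCDD libraries overlapped. The fitted change was 1.04 (SE 0.09, a fold of 2.05) for TCDD against vehicle, -0.02 (SE 0.09) for RSV against vehicle and 0.01 (SE 0.09) for RSV+TCDD against RSV. The RSV by TCDD interaction, the TCDD response with RSV minus the response without, was -1.03 (SE 0.13). These are the values by which NQO1 was chosen.

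**Figure D1:**
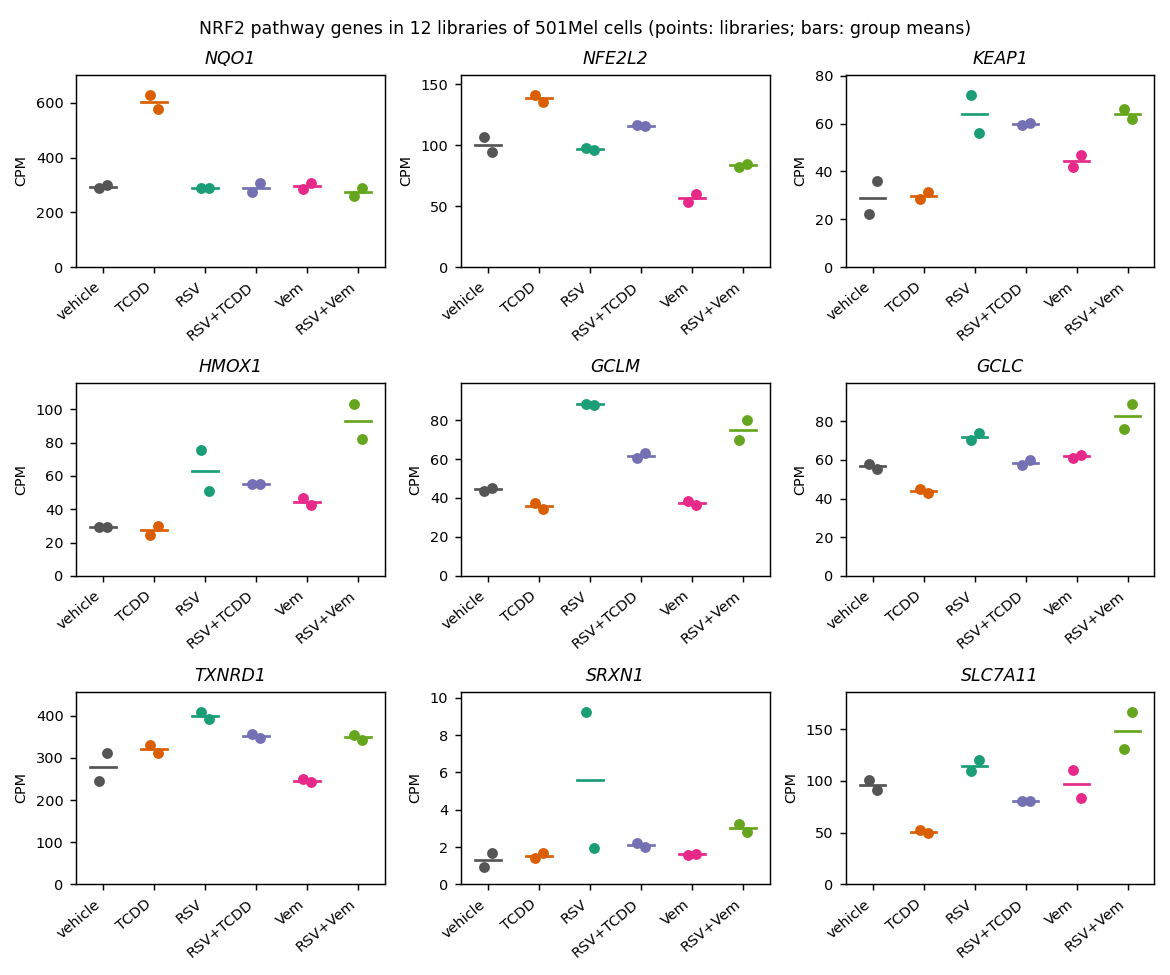
TMM-scaled CPM (vertical axes, from 0, a scale per gene) of the 9 pathway genes in the 6 treatment groups; points are the 2 libraries of a group and bars their mean. NQO1 stands at 578 and 627 CPM with TCDD and between 261 and 308 CPM elsewhere, while HMOX1, GCLM and KEAP1 are higher in the groups with RSV.

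Vem did not change NQO1 detectably. NQO1 measured 285 and 308 CPM with Vem and 261 and 288 CPM with RSV+Vem, and both pairs overlapped the vehicle libraries. The change was 0.01 (95% interval -0.18 to 0.20, edgeR adjusted p = 0.93, and -0.64 under spike-in scaling) for Vem against vehicle, whose vehicle libraries are also those of the comparison by which NQO1 was chosen. It was -0.11 (-0.30 to 0.08, edgeR adjusted p = 0.35) for RSV+Vem against Vem, which shares no library with that comparison.

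Of the regulators, NFE2L2 itself rose with TCDD, modestly. Its libraries held 107 and 94.1 CPM in vehicle and 141 and 136 CPM with TCDD, without overlap, a change of 0.46 (SE 0.09, edgeR adjusted p = 0.0052). The call was lost without vehicle replicate 2 (0.37, edgeR adjusted p = 0.060) or TCDD replicate 1 (0.44, adjusted p = 0.083), and under spike-in scaling the change was -0.04. RSV alone gave 97.8 and 96.2 CPM, within the vehicle range, and RSV+TCDD gave 116 and 115. The TCDD change with RSV present was 0.26 (95% interval 0.06 to 0.45, edgeR adjusted p = 0.11, and -0.77 under spike-in scaling), and the RSV by TCDD interaction was -0.21 (-0.49 to 0.07, adjusted p = 0.78). NFE2L2 was thus lower with RSV+TCDD than with TCDD by a called -0.26 (edgeR adjusted p = 0.038), a call lost when any of these 4 libraries was left out (adjusted p between 0.0995 and 0.21) and in DESeq2 (-0.25, adjusted p = 0.053).

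KEAP1 rose with RSV, and TCDD did not change it detectably. KEAP1 measured 22.4 and 35.9 CPM in vehicle, 28.5 and 31.3 under TCDD, 71.9 and 56.0 under RSV, and 59.6 and 60.1 under RSV+TCDD. All 4 libraries with RSV or RSV+TCDD stood above all 4 without, and the vehicle libraries differed from each other more than those of TCDD. The RSV change was 1.13 (SE 0.17, edgeR adjusted p = 0.00014) without TCDD and 1.00 (SE 0.17, adjusted p = 0.00044) with it. The 6 partner genes were the small Mafs MAFF and MAFK, the repressor BACH1, the ligase components CUL3 and RBX1, and the related factor NFE2L1. TCDD called 0 of them in edgeR, beside 4.72% of all tested genes raised and 2.01% lowered. At an unadjusted p below 0.05 it was 1, beside 3463 of 16080 tested genes, and in DESeq2 0. RSV raised NFE2L1 (0.61) and BACH1 (0.36) and lowered CUL3 (-0.38) and RBX1 (-0.30), beside 20.5% and 20.2% of all tested genes. The RBX1 call was lost in DESeq2 (-0.29, adjusted p = 0.082). In edgeR it was lost with RLE factors, without the count filter and with a minimum of 10 counts per library. It was also lost in a fit of only the libraries compared (edgeR adjusted p between 0.054 and 0.15 in these 4 fits). Of these 4 calls only that of NFE2L1 remained whichever of the compared libraries was left out: without vehicle replicate 2 the changes of BACH1, CUL3 and RBX1 were 0.31, -0.25 and -0.29 with edgeR adjusted p between 0.090 and 0.12.

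Of the 3 glutathione genes, RSV alone raised GCLM and GCLC, and TCDD alone lowered GCLC and SLC7A11. GCLM, the modifier subunit of glutamate-cysteine ligase, measured 43.7 and 45.3 CPM in vehicle, 37.3 and 34.1 under TCDD, 88.4 and 87.9 under RSV, and 60.5 and 63.1 under RSV+TCDD. These 4 groups did not overlap. The RSV change was 0.99 (SE 0.10, edgeR adjusted p = 1.1e-06) without TCDD and 0.79 (SE 0.10, adjusted p = 1.7e-05) with it. TCDD gave -0.32 (edgeR adjusted p = 0.077) without RSV, which was not called, and lowered GCLM with RSV present (-0.51, adjusted p = 0.0057), a call lost without RSV+TCDD replicate 1 (-0.48, adjusted p = 0.053).

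GCLC, the catalytic subunit of the same enzyme, rose with RSV and fell with TCDD. It measured 57.8 and 55.4 CPM in vehicle, 44.9 and 42.9 under TCDD, 70.1 and 74.0 under RSV, and 57.4 and 59.9 under RSV+TCDD, where it met the vehicle libraries. TCDD lowered it (-0.37, edgeR adjusted p = 0.039), a call lost when any of the 4 libraries was left out (adjusted p between 0.069 and 0.25). RSV raised it by 0.35 (edgeR adjusted p = 0.010), a call lost without vehicle replicate 2 (0.32, adjusted p = 0.054) or RSV replicate 2 (0.31, adjusted p = 0.058). RSV raised it by 0.42 (adjusted p = 0.0039) with TCDD present, a direction that turned under spike-in scaling (-0.27).

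SLC7A11, the cystine importer that supplies glutathione synthesis with cysteine, fell the most with TCDD among the 9 genes. It measured 100.8 and 90.9 CPM in vehicle, 52.8 and 49.3 under TCDD, 109.5 and 119.7 under RSV, and 80.5 and 80.8 under RSV+TCDD. The TCDD libraries stood below every other library. The TCDD change was -0.91 (SE 0.13, edgeR adjusted p = 0.00044), a 1.88-fold lower level, called whichever library was left out (-0.99 to -0.83). With RSV present it was -0.51 (SE 0.13, adjusted p = 0.027), a call lost without RSV replicate 2 (-0.44, adjusted p = 0.17), RSV+TCDD replicate 1 (-0.50, adjusted p = 0.11) or RSV+TCDD replicate 2 (-0.50, adjusted p = 0.13). RSV raised SLC7A11 by 0.66 (edgeR adjusted p = 0.00086) with TCDD present, -0.03 under spike-in scaling, and gave 0.26 (95% interval -0.01 to 0.53, adjusted p = 0.12) without it. Its antisense gene SLC7A11-AS1 held between 0 and 4 counts per library, against 670 to 2451 for SLC7A11.

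HMOX1, which breaks down heme, and TXNRD1, which reduces thioredoxin, also rose with RSV. HMOX1 measured 29.0 and 29.3 CPM in vehicle, 24.6 and 29.9 under TCDD, 75.4 and 51.0 under RSV, and 55.4 and 55.0 under RSV+TCDD. The RSV change of HMOX1 was 1.11 (SE 0.16, edgeR adjusted p = 6.1e-05) without TCDD and 1.03 (SE 0.16, adjusted p = 0.00016) with it, and TCDD gave -0.10 (95% interval -0.45 to 0.25, adjusted p = 0.77). TXNRD1 measured 246 and 311 CPM in vehicle, 331 and 312 under TCDD, 408 and 392 under RSV, and 356 and 346 under RSV+TCDD. Its RSV change was 0.52 (SE 0.10, edgeR adjusted p = 0.00037) without TCDD and 0.13 (95% interval -0.08 to 0.33, adjusted p = 0.32, and -0.55 under spike-in scaling) with it.

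SRXN1, sulfiredoxin, which repairs oxidised peroxiredoxins, was counted too low to rank. It held 153 counts in RSV replicate 1 and between 18 and 61 counts in the other 11 libraries. The called RSV change of 2.06 (SE 0.61, edgeR adjusted p = 0.023) became 0.56 (adjusted p = 0.28) without RSV replicate 1 and 1.71 (adjusted p = 0.10) without vehicle replicate 1. In the GENCODE annotation 90.7% of its exonic bases are shared with another gene model on the same strand (ENSG00000270299), so its count is uncertain.

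**Figure D2:**
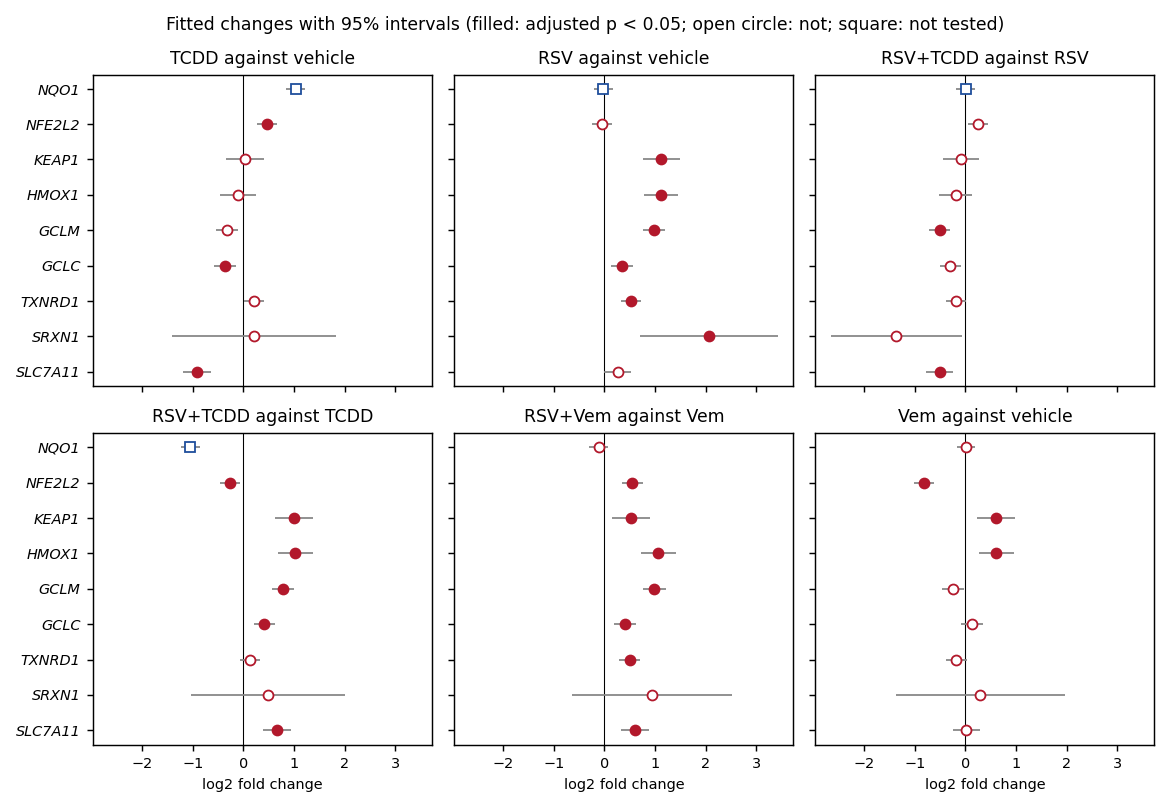
Log2 fold changes (horizontal axis) of the 9 genes in 6 comparisons with 95% intervals; filled circles have an edgeR adjusted p below 0.05, open circles do not, and squares mark NQO1 where it was not tested. RSV against vehicle shows KEAP1, HMOX1 and GCLM between 0.99 and 1.13 with NQO1 at -0.02, and TCDD against vehicle shows NQO1 at 1.04 with SLC7A11 at -0.91.

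Counted over the 8 genes other than NQO1, TCDD raised 1 (NFE2L2) and lowered 2 (GCLC, SLC7A11), beside 4.72% of all tested genes raised and 2.01% lowered. RSV raised 6 of the 8 and lowered 0, also at an unadjusted p below 0.05 and in DESeq2, beside 20.5% and 20.2% of all tested genes. Among these 6, the calls of GCLC and SRXN1 depended on single libraries, as given above. The median change of the 8 genes with RSV was 0.75, against -0.002 for all tested genes. TCDD added to RSV raised 0 (1, NFE2L2, at an unadjusted p below 0.05, and 0 in DESeq2) and lowered 2, beside 3.89% and 2.28%. RSV added to TCDD raised 5 and lowered 1 (NFE2L2, which DESeq2 did not call), beside 18.6% and 19.1%. RSV against vehicle and RSV added to TCDD share no library, whereas TCDD against vehicle shares libraries with both.

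None of the 8 genes passed the test of the RSV by TCDD interaction, the measure that stood at -1.03 for NQO1. edgeR called 0 of 8, and DESeq2 called 0. At an unadjusted p below 0.05 there were 2 (TXNRD1 and SLC7A11), beside 1268 of 16080 tested genes. Over all tested genes 0.0124% were called higher and 0.137% lower, so a call was rare for any gene. TXNRD1 was at -0.39 (95% interval -0.68 to -0.11, not adjusted for the number of genes, edgeR adjusted p = 0.42) and SLC7A11 at 0.40 (0.01 to 0.79, adjusted p = 0.62), which was -0.11 under spike-in scaling. The intervals were -0.64 to 0.40 for KEAP1, -0.57 to 0.39 for HMOX1, -0.50 to 0.11 for GCLM and -0.23 to 0.37 for GCLC, whose value was -0.45 under spike-in scaling. Under TMM scaling a change of -1.03 lay outside the interval of each gene except SRXN1, whose interval ran from -3.66 to 0.50. Under spike-in scaling the median of all tested genes in this interaction was -0.52, and these intervals do not carry over to that scaling. The value of -1.03, also from TMM scaling, is the one by which NQO1 was chosen, and the intervals are not adjusted for the number of genes. Smaller negative changes lay within the interval of every gene except SLC7A11. TXNRD1 was called without vehicle replicate 2 (-0.57, adjusted p = 0.033) and SRXN1 without RSV replicate 2 (-2.32, adjusted p = 0.025).

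**Figure D3:**
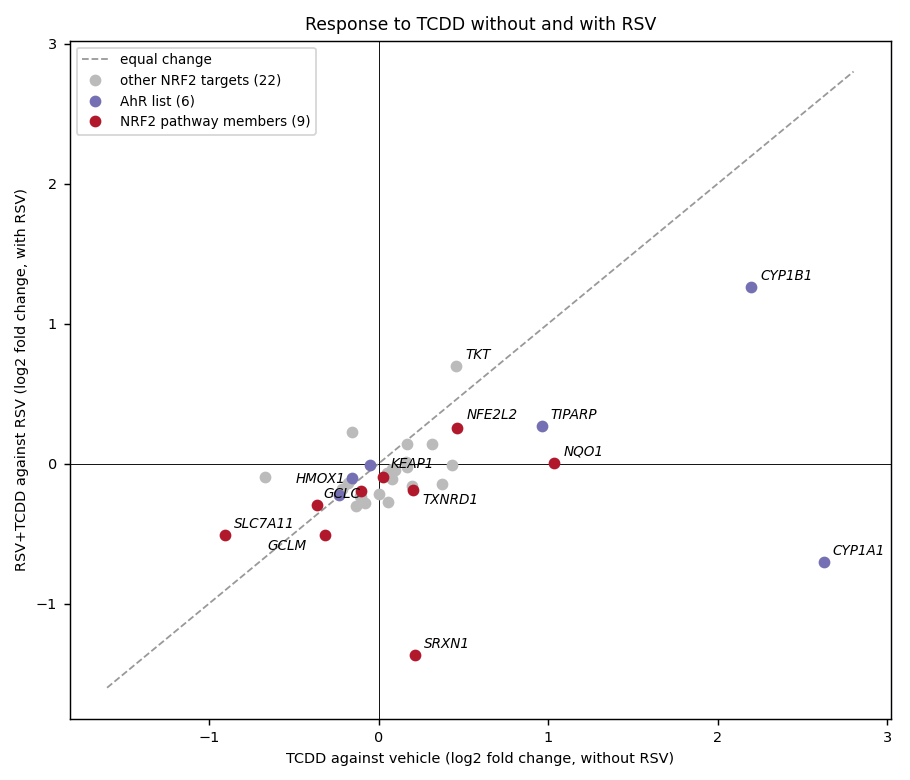
Log2 change with TCDD against vehicle (horizontal axis) and with RSV+TCDD against RSV (vertical axis) for the 9 pathway genes, 22 further NRF2 targets and 6 AhR genes; no library is shared between the axes and the dashed line marks equal change. NQO1 lies at 1.04 and 0.01 and CYP1A1 at 2.62 and -0.70, while SLC7A11 and NFE2L2 lie nearer the line.

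The question was widened to 30 further NRF2 targets, of which 22 passed the filter. GPX2, MGST1, ABCC3, AKR1B10, AKR1C1, AKR1C2, AKR1C3 and ALDH3A1 held at most 8 counts in any library and were not tested. In the RSV by TCDD interaction edgeR called 0 of the 22, and DESeq2 called 0. At an unadjusted p below 0.05 there were 6 of the 22, 2 higher and 4 lower, beside 1268 of 16080 tested genes. The lowest adjusted p belonged to FTH1, the ferritin heavy chain, at -0.45 (95% interval -0.69 to -0.20, edgeR adjusted p = 0.17). BLVRB, biliverdin reductase B, was at -0.52 (adjusted p = 0.31) and FTL, the ferritin light chain, at -0.35 (adjusted p = 0.45). PRDX1, a peroxiredoxin, was at -0.33 (adjusted p = 0.46), while ME1, malic enzyme, was at 0.57 (adjusted p = 0.59) and ABCC1, an exporter of glutathione conjugates, at 0.38 (adjusted p = 0.60). These 6 genes were named after their values were seen. The median over the 22 targets was -0.15, against -0.003 for all tested genes.

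TCDD alone raised 2 of the 22 targets and lowered 1, beside 4.72% and 2.01% of all tested genes. TKT, transketolase, rose by 0.46 (edgeR adjusted p = 0.0055) and FTH1 by 0.43 (adjusted p = 0.0033), while ME1 fell by 0.67 on the log2 scale (adjusted p = 0.026). Under spike-in scaling TKT was at -0.05 and FTH1 at -0.07. The TKT call was lost without TCDD replicate 2 (adjusted p = 0.082), and that of ME1 without vehicle replicate 1 or either TCDD library (adjusted p between 0.15 and 0.20). With the 8 other members, TCDD raised 3 and lowered 3 of 30 pathway genes. Fewer were called when either TCDD library was left out, and fewer of all tested genes were called there too. TKT kept its TCDD response with RSV present (0.69, edgeR adjusted p = 0.00047, -0.34 under spike-in scaling) and was the 1 target called there. TCDD added to RSV raised 1 and lowered 2 of 30 pathway genes, beside 3.89% and 2.28% of all tested genes. Without RSV+TCDD replicate 1 fewer were called, both among these genes and among all tested genes.

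RSV alone raised 10 of the 22 targets and lowered 4, beside 20.5% and 20.2% of all tested genes, with a median change of 0.21. The share lowered was near that of all genes. SQSTM1, the autophagy receptor that binds KEAP1, rose by 1.44 (SE 0.11, edgeR adjusted p = 4.4e-08). EPHX1, an epoxide hydrolase, rose by 1.17, OSGIN1 by 1.08 and FTL by 0.89, and ABCC1 fell by 0.77 on the log2 scale. Among the listed genes of the pentose phosphate pathway and NADPH supply, PGD rose (0.52) and TKT and ME1 fell (-0.42 and -0.44). Of the thioredoxin pair, PRDX1 rose (0.26) and TXN fell (-0.59). With TCDD present RSV raised 7 targets and lowered 3, beside 18.6% and 19.1% of all tested genes, among them SQSTM1 at 1.32 and EPHX1 at 1.04, which share no library with the first values. FTL was at 0.53 there, -0.15 under spike-in scaling.

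**Figure D4:**
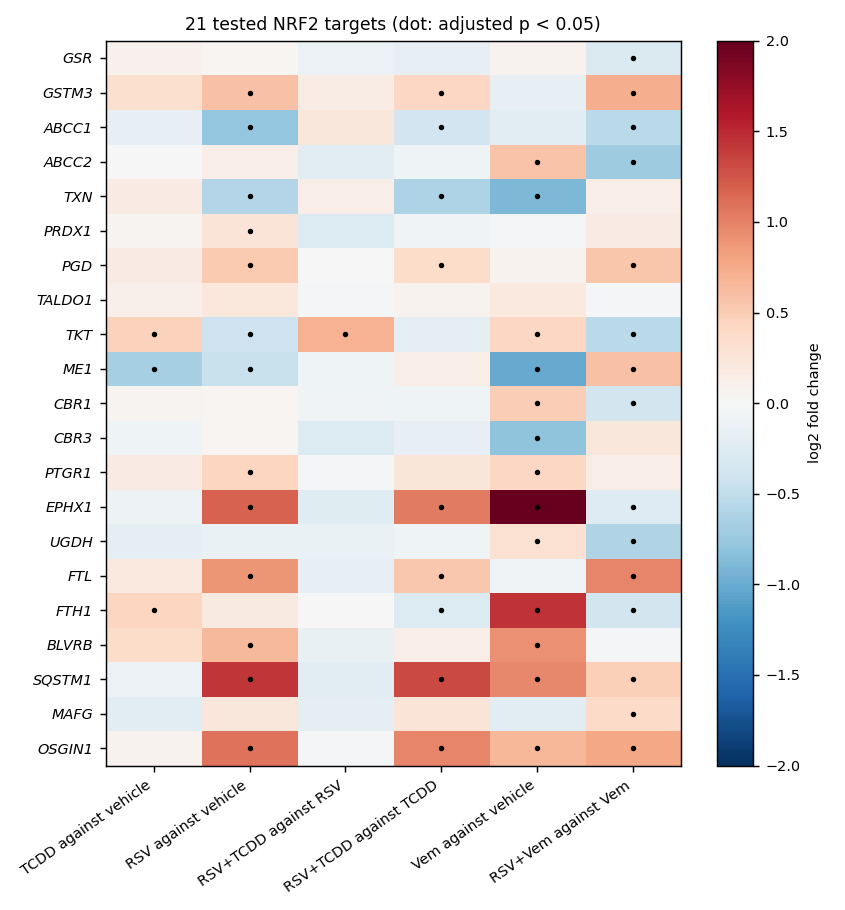
Log2 fold change (colour, from -2 to 2) of 21 of the 22 tested NRF2 targets (rows) in 6 comparisons (columns), with a dot where the edgeR adjusted p was below 0.05. The TCDD column holds 3 dots and the RSV column 13, and SQSTM1, EPHX1 and OSGIN1 are raised in both comparisons that add RSV without Vem.

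The AhR list was examined because NQO1 is also a target of AhR. Of 6 genes, TCDD raised 3 in edgeR and 2 in DESeq2, beside 4.72% of all tested genes raised in edgeR. The other 3, AHR, AHRR and ARNT, had negative changes that were not called. Their group means were 48.1, 20.4 and 71.3 CPM under TCDD, against 56.6, 22.9 and 73.7 CPM in vehicle. CYP1A1, the classical AhR target, measured 23.5 and 23.1 CPM in vehicle, 156 and 131 under TCDD, 69.0 and 67.5 under RSV, and 41.8 and 42.2 under RSV+TCDD, and the 4 groups did not overlap. Its RSV by TCDD interaction was called at -3.32 (SE 0.17, edgeR adjusted p = 1.5e-09). TIPARP, a repressor induced by AhR, rose by 0.96 with TCDD (edgeR adjusted p = 5.7e-05), and its interaction of -0.70 (95% interval -1.03 to -0.36) was not called in edgeR (adjusted p = 0.11), while DESeq2 called 2 of the 6 genes in that interaction. CYP1B1 was the third gene raised and lay near the floor, with 4 and 3 counts in vehicle and 18 and 9 under TCDD. Unlike NQO1, CYP1A1 rose with RSV alone, by 1.55 (adjusted p = 4.4e-08).

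SLC7A11 is also a target of ATF4, the factor of the amino acid response, so 9 genes of that response were listed. RSV raised 6 of 9 and lowered 0 in edgeR (6 and 0 at an unadjusted p below 0.05, 7 and 0 in DESeq2), beside 20.5% and 20.2% of all tested genes, with a median of 1.34, among them CHAC1 (2.83), which degrades glutathione, SESN2 (2.05), DDIT3 (1.65) and ASNS (1.64). TCDD raised PHGDH (0.71) and lowered PSAT1 (-0.68). The part of these genes in the changes of SLC7A11 was not tested.

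In BRAF-inhibited cells RSV raised 7 of the 8 genes, while NQO1 did not pass the test and the targets moved both ways. RSV added to Vem raised these 7 and lowered 0, with the same counts at an unadjusted p below 0.05 and in DESeq2, beside 19.1% and 18.7% of all tested genes, and this comparison shares no library with RSV against vehicle. HMOX1 measured 46.8 and 42.3 CPM with Vem and 103 and 82.2 with RSV+Vem, a change of 1.06 (SE 0.16, edgeR adjusted p = 7.8e-05). GCLM measured 38.7 and 36.6 CPM with Vem and 69.5 and 79.8 with RSV+Vem, a change of 0.98 (SE 0.11, adjusted p = 1.2e-06). SLC7A11 measured 111 and 83.3 CPM with Vem and 130.4 and 166 with RSV+Vem, and NFE2L2 measured 53.8 and 60.2 against 81.9 and 85.0, both without overlap. SLC7A11 rose by 0.61 (adjusted p = 0.0013), NFE2L2 by 0.55 (adjusted p = 0.00024), TXNRD1 by 0.50 (adjusted p = 0.00053), KEAP1 by 0.53 (adjusted p = 0.026) and GCLC by 0.41 (adjusted p = 0.0039). The KEAP1 call was lost when any of the 4 libraries was left out (adjusted p between 0.061 and 0.16), and that of GCLC without RSV+Vem replicate 2 (0.30, adjusted p = 0.074). Of the 22 targets 7 rose and 8 fell, with FTL (0.98), OSGIN1 (0.77) and GSTM3 (0.72) higher and ABCC2 (-0.71) and UGDH (-0.60) lower.

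Vem alone lowered NFE2L2 and raised KEAP1 and HMOX1. NFE2L2 measured 53.8 and 60.2 CPM, below every library of the other groups, a change of -0.82 (SE 0.10, edgeR adjusted p = 1.3e-06). KEAP1 rose by 0.60 (adjusted p = 0.0093) and HMOX1 by 0.61 (adjusted p = 0.0048), both at -0.04 under spike-in scaling. The KEAP1 call was lost without vehicle replicate 1 (0.31, adjusted p = 0.10) or Vem replicate 2 (0.52, adjusted p = 0.076), and that of HMOX1 without Vem replicate 1 (0.54, adjusted p = 0.0503). Thus 2 of the 8 genes rose and 1 fell, beside 25.5% and 26.9% of all tested genes, and GCLM, GCLC, TXNRD1, SRXN1 and SLC7A11 lay between -0.24 and 0.29. Of the 22 targets 11 rose and 3 fell, led by EPHX1 (1.98) and FTH1 (1.45) upward and ME1 (-1.01) downward. MAFF, a small Maf partner, fell by 4.46 on the log2 scale (SE 0.48, adjusted p = 0.00021).

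Vem added to RSV raised 2 of the 8 genes, beside 11.3% of tested genes raised and 13.4% lowered. HMOX1 rose by 0.56 (edgeR adjusted p = 0.015), lost without RSV replicate 2 (0.31, adjusted p = 0.16) or RSV+Vem replicate 1 (0.38, adjusted p = 0.19), and SLC7A11 by 0.37 (adjusted p = 0.046), lost in 3 of the 4 omissions (adjusted p between 0.075 and 0.40), with a replicate block (0.37, adjusted p = 0.052) and in a fit of only the libraries compared (adjusted p = 0.061), and at -0.22 under spike-in scaling. In the RSV by Vem interaction 1 of the 8 genes was called, NFE2L2 at 0.60 (SE 0.14, edgeR adjusted p = 0.0041), beside 11.8% of tested genes higher and 10.9% lower. NFE2L2 did not respond to RSV detectably without Vem (-0.05, 95% interval -0.25 to 0.15) and rose with it.

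Likeness to NQO1 was measured on libraries by which NQO1 was chosen and is a description. Over the 12 libraries, 4 of the 5 genes with the highest Pearson r to NQO1 among 3992 eligible genes (mean count of at least 50, group means spanning at least 1 on the log2 scale) were YWHAH (0.94), SLC12A7 (0.93), MFSD12 (0.92) and HMG20B (0.90). These correlations describe libraries that share treatments and rest largely on the 2 TCDD libraries. The Spearman values of the same genes were lower, between 0.40 and 0.60. SLC12A7, a potassium-chloride cotransporter, had group means of 72.0 CPM in vehicle, 143 under TCDD, 73.3 under RSV and 80.7 under RSV+TCDD. Of the 22 targets TXN had the highest r over the 12 libraries, 0.70, and of the 6 partners CUL3, 0.64. Over the 8 libraries without Vem, FTH1 had the highest r of the targets, 0.82 (-0.12 over the 12), and TXN had 0.73. FTH1 had group means of 2887 CPM in vehicle, 3901 under TCDD, 3273 under RSV and 3245 under RSV+TCDD. Among the 8 other members r over the 12 libraries was 0.59 for NFE2L2, the highest, and -0.82 for SLC7A11, -0.77 for GCLC, -0.63 for HMOX1 and -0.56 for GCLM. Over the 8 libraries without Vem it was 0.84 for NFE2L2 and -0.90 for SLC7A11.

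**Figure D5:**
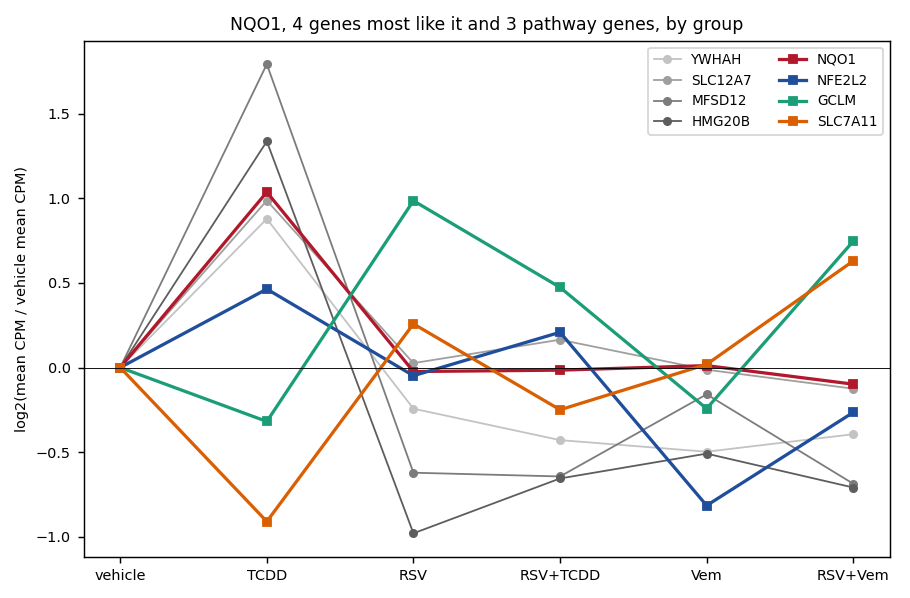
Log2 ratio of the group mean CPM to the vehicle mean (vertical axis) in the 6 groups for NQO1, 4 of the 5 genes with the highest correlation to it (greys) and 3 pathway genes. NQO1 and these 4 genes peak with TCDD, GCLM peaks with RSV, and SLC7A11 is lowest with TCDD.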

How the data were processed

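RNA of 501Mel cells from 6 treatments, 2 libraries each, was measured by stranded mRNA sequencing. The authors aligned read pairs to hg19 with STAR 2.4.0a, assigned them to gene symbols with featureCounts (Subread 1.5.0-p3) with strand set, and deposited raw counts without normalization. The annotation release is not given in the sources used here. Molecular identifiers were not used, so counting error is a lower limit.

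After removal of 96 control sequences, filterByExpr kept 16080 genes. edgeR 4.0.16 in R 4.3.3 was fitted (robust quasi-likelihood, TMM factors between 0.890 and 1.08) with a coefficient for each group over the 12 libraries, and tested with its F test. SE is the log2 fold change divided by the square root of F. Replicate numbers did not enter as a block, since replicate differences correlated above 0.1 in only 6 of 15 group pairs and below -0.1 in 4.

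The members and lists were chosen with earlier results of these data known. Named beyond the members were, per list and comparison, at most 5 called genes with the largest change, a mean count of at least 50 and no overlap between groups, and PRDX1, TXN, PGD, TKT and ME1 under RSV alone, and CYP1B1, were named after their values were seen. Alternatives were DESeq2 1.42.0, RLE factors, ERCC scaling, omission of the filter, a minimum of 10 counts per library, the replicate block, fits restricted to the groups compared, and leaving out each library. The steps were tested on simulated data. Upstream windows came from the GRCh37 genome and GENCODE canonical transcripts. Values of 2 genes, 1 of the listed targets and 1 of the 5 genes most like NQO1, are not reported here, and the counts include the target. Figures were drawn with matplotlib.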

Additional observations from a re-analysis of the deposited data

Results flagged for a closer look

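Interactions past the threshold were noted because the effect of RSV differed between cells with and without a second compound (edgeR, adjusted p below 0.05). In the RSV by TCDD interaction this was CYP1A1 at -3.32. In the RSV by Vem interaction NFE2L2 was at 0.60. Among the NRF2 targets, ME1 was at 1.03 and TXN at 0.72, while EPHX1 was at -1.43, SQSTM1 at -0.96, ABCC2 at -0.84, BLVRB at -0.68 and FTH1 at -0.55. The partners MAFF and NFE2L1 were at 2.41 and -0.58. Of the AhR genes, AHR was at 0.91, TIPARP at 0.59, CYP1A1 at -0.61 and AHRR at -0.85, and of the ATF4 list PHGDH was at 0.85. The MAFF call was lost when any of 6 libraries was left out, those of the Vem, RSV and RSV+Vem groups (adjusted p between 0.058 and 0.14), that of CYP1A1 in the RSV by Vem interaction without Vem replicate 1 or RSV+Vem replicate 1, and that of TIPARP without vehicle replicate 1, Vem replicate 2 or RSV replicate 2. The ME1 call was lost without RSV+Vem replicate 1 (adjusted p = 0.053).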

How the results depend on the processing

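Replicate numbers were not used to pair the libraries, and whether they mark pairs is not settled. A replicate block gave 6, 20, 3, 16, 0, 17, 22, 7 and 10 called genes among the 30 tested pathway genes (the 8 other members and 22 targets), against 6, 20, 3, 16, 0, 17, 22, 8 and 9 without it, for TCDD, RSV, TCDD added to RSV, RSV added to TCDD, their interaction, Vem, RSV added to Vem, Vem added to RSV and their interaction. Scaling to the ERCC spike-ins gave 0, 1, 25 (all lower), 1, 0, 5, 0, 0 and 0. Over all 16080 tested genes that scaling called 10, 369, 6927, 1912, 1, 3815, 389, 481 and 8, in the same order. The 25 lower genes thus stood beside a median of -1.02 for all tested genes. Fitting only the libraries compared left 4 of 8 for Vem added to RSV. Over all tested genes that fit called 3027, against 3972 in the main fit. Leaving out 1 library gave between 3 and 5 for TCDD, 17 and 19 for RSV, 1 and 3 for TCDD added to RSV, 12 and 14 for RSV added to TCDD, 0 and 1 for their interaction, 15 and 18 for Vem, 16 and 18 for RSV added to Vem, 5 and 7 for Vem added to RSV, and 8 and 12 for the last interaction. In the fits that left out 1 library, the number called over all tested genes moved as well, mostly downward. The causes were not tested.

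Directions turned mainly under spike-in scaling. For TCDD against vehicle the turned values were NFE2L2 -0.042, KEAP1 -0.48, TXNRD1 -0.30, SRXN1 -0.27, TKT -0.052 and FTH1 -0.074. For RSV+TCDD against RSV they were NFE2L2 -0.77 and TKT -0.34. The near-0 changes of NQO1 in RSV against vehicle and in RSV+TCDD against RSV were not eligible for this list. The median of all tested genes in RSV+TCDD against RSV was -1.02 under spike-in scaling. For RSV+TCDD against TCDD they were GCLC -0.27, TXNRD1 -0.55, SRXN1 -0.21, SLC7A11 -0.027, FTL -0.15, MAFK -0.14, BACH1 -0.20, NFE2L1 -0.30 and AHR -0.18, and for the RSV by TCDD interaction GCLC -0.45 and SLC7A11 -0.11. For Vem against vehicle they were NQO1 -0.64, KEAP1 -0.045, HMOX1 -0.039, GCLC -0.52, SRXN1 -0.34, SLC7A11 -0.63, NFE2L1 -0.13 and ARNT -0.28, for RSV+Vem against RSV SLC7A11 -0.22 and TKT -0.22, and for the RSV by Vem interaction NQO1 0.015. Without a filter on low counts NQO1 and SLC7A11 were at -0.013 and -0.0023 for Vem against vehicle.

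Some values near 0 turned when 1 library was left out. The ranges for TCDD against vehicle were -0.27 to 0.41 for KEAP1, -0.24 to 0.038 for HMOX1 and -0.13 to 0.73 for SRXN1. NFE2L2 ran from -0.13 to 0.038 for RSV against vehicle. For RSV+TCDD against RSV, NQO1 ran from -0.08 to 0.10, KEAP1 from -0.26 to 0.10, HMOX1 from -0.45 to 0.12 and SRXN1 from -2.11 to 0.13. For the RSV by TCDD interaction KEAP1 ran from -0.50 to 0.18 and HMOX1 from -0.34 to 0.23. For Vem against vehicle NQO1 ran from -0.048 to 0.066, TXNRD1 from -0.34 to 0.019, SRXN1 from -0.050 to 0.83 and SLC7A11 from -0.20 to 0.21. NQO1 kept its direction in TCDD against vehicle, in RSV+TCDD against TCDD and in the RSV by TCDD interaction under each alternative. With 2 libraries per group, small differences could not be detected, SRXN1 least of all.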
